A study of Bos taurus with 27 samples.

Results

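In the ileum of newborn calves, 200 of the 11429 genes with enough counts to analyse varied together from calf to calf. They formed the high end of the largest axis of difference between the animals. These genes were chosen from the measured values themselves. Expression was measured as log2 CPM, in which CPM is the count of a gene relative to the scaled total of its library. Each gene's log2 CPM was correlated with the first principal component of all 27 libraries. That component was turned so that the most abundant gene, ENSBTAG00000043570, correlated negatively with it. The 10 most abundant genes were set aside, and the 200 genes of highest Pearson correlation were taken. They are 1.75% of the genes kept.

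The samples were ileum from 27 male Holstein calves at 51 h of age, with 1 library per calf. The calves had received colostrum immediately after birth (0 h), at 6 h or at 12 h, with 9 calves in each group, and no group went without colostrum. The labels describe separate calves, so the spread within a group includes the spread between animals. Libraries held 972578 to 7125552 counts, with a median of 1626630 at 0 h, 1346550 at 6 h and 3326870 at 12 h. Every one of the 351 pairs of libraries differed by more than counting noise, with a chi-square per gene of 2.28 or more, where counting noise alone gives about 1.

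The ileum is the last part of the small intestine. It holds an absorbing epithelium, a layer of connective tissue and vessels, lymphoid follicles known as Peyer's patches, nerves and smooth muscle. In the newborn calf the small intestine takes up antibodies from colostrum only for a short time after birth. A piece of whole ileum gives one summed profile of all these cells, so fewer cells of a type and less RNA per cell cannot be told apart. The first principal component of such a set of profiles is the weighted sum of genes along which the samples differ most. Genes that correlate strongly with it are genes that vary together.

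The files list genes by Ensembl cattle identifier and do not pair them with names. The reference gene table holds none of these identifiers, so 0 were matched to a symbol. What the 200 genes encode, and their sequences, are therefore not given here. The labelled tissue could not be checked against markers of ileum, and markers of other cell types could not be read beside the values below.

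The first component held 15.9% of the variance, and the 200 genes carried 20.1% of its squared weights. Their correlation with it ran from 0.834 to 0.970, with a median of 0.880, where the median of all genes kept was -0.04. The choice fixes these values, and they are given as a description. The edge of the set is not a natural break. The last 2 genes inside it had correlations of 0.835 and 0.834, and the next 2 genes outside it had 0.834 and 0.833. The axis was lopsided. A correlation above 0.8 was seen for 293 genes, and one below -0.8 for 1 gene. The 200 genes at the opposite end had correlations of -0.822 to -0.618.

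The spread of the 200 genes between calves was wide. The mean of their centred log2 CPM, in which each gene is measured from its own mean over the calves, is called their level below. The level ran from -0.80 in replicate 8 of the calves fed at 6 h to 0.75 in replicate 3 of those fed at 12 h. This is a difference of 1.55 on the log2 scale, or 2.93-fold. Calves were spread along the whole range rather than split into classes, with no gap between neighbouring calves larger than 0.22. The low end held replicates 8 and 7 at 6 h (-0.80 and -0.76) and replicates 2 and 6 at 0 h (-0.68 and -0.67). The high end held replicate 3 at 12 h (0.75), replicate 1 at 0 h (0.63), replicate 4 at 6 h (0.59) and replicate 5 at 0 h (0.56). Both ends therefore held calves from more than 1 feeding group.

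At both ends of this order, nearly all of the genes stood on the same side. Choosing genes that follow a shared axis largely fixes this and widens the range of the level, so both are given as a description. In replicate 3 at 12 h, 200 of the 200 genes were above their own mean over the calves, and 74 reached their highest value there. In replicates 7 and 8 at 6 h and replicates 2 and 6 at 0 h, 0 of the 200 were above it. Replicate 8 at 6 h held the lowest value of 60 genes and replicate 7 at 6 h that of 55. Calves in the middle were mixed: replicate 7 at 12 h had 82 of the 200 genes above their own mean, and replicate 3 at 6 h had 134. In 21 of 27 calves more than 150 of the genes lay on one side. As a share of all counts, the 200 genes took from 0.965% to 2.15%, a 2.23-fold range.

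**Figure D1:**
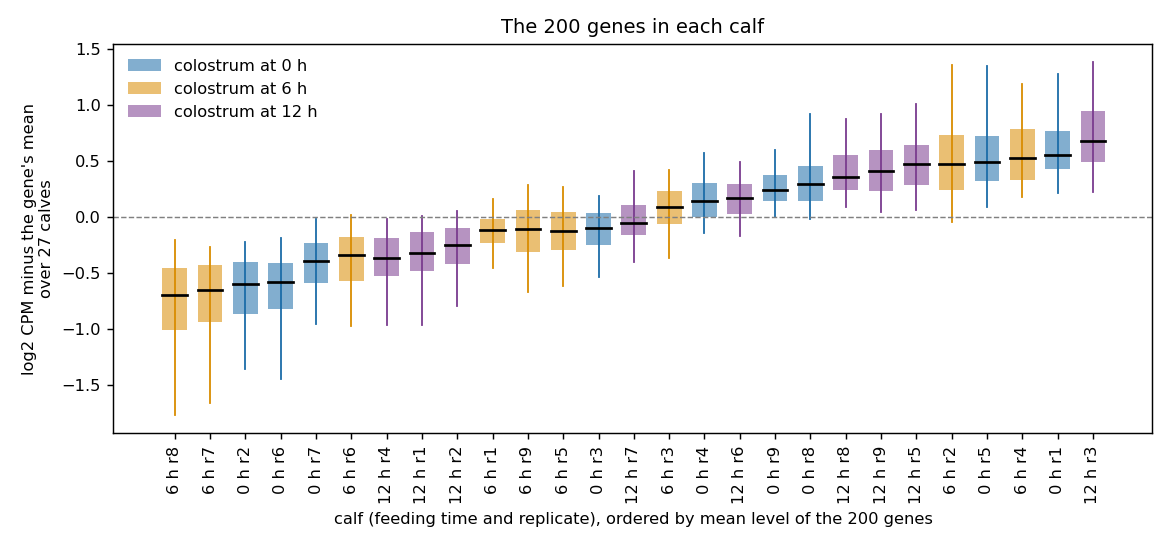
Centred log2 CPM of the 200 genes (vertical axis) in each of the 27 calves, ordered by the mean level of the genes. Bars span the lower to the upper quartile of the 200 genes, thin lines the 5th to the 95th percentile and black lines the median, and colour gives the feeding time. Levels climb without a break from -0.80 to 0.75. The 3 feeding groups are mixed along most of the order, but the lowest calf fed at 12 h is at rank 7, with -0.40.

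The gene of highest correlation with the component was ENSBTAG00000046996, with r = 0.970. It ranged from 31.0 to 105.4 normalised CPM in the calves fed at 0 h (median 62.6). At 6 h it ranged from 33.0 to 91.1 (median 54.2), and at 12 h from 41.3 to 93.2 (median 67.6). Its lowest calves were replicate 2 at 0 h and replicates 7 and 8 at 6 h, all at the low end of the whole set, and the 3 groups overlapped widely. The counts behind these values ran from 34 to 415 per library.

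ENSBTAG00000022799 was next, with r = 0.960. It ranged from 37.2 to 114 normalised CPM at 0 h (median 83.0), from 35.7 to 126.4 at 6 h (median 71.8) and from 43.5 to 142 at 12 h (median 81.9). Over all calves this was a 3.99-fold range. Its highest calf was replicate 3 at 12 h and its lowest was replicate 8 at 6 h, as for the level of the whole set.

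The gene of the set with the widest spread was ENSBTAG00000047789, chosen after its values were seen. Its log2 CPM had an SD of 1.95 over the 27 calves. At 0 h it ranged from 0.826 to 42.0 normalised CPM (median 15.7), and at 12 h from 1.85 to 68.5 (median 16.8). At 6 h it had a median of 3.08 and a highest value of 69.3. It had 0 counts in replicate 8 at 6 h, which allows up to 2.98 normalised CPM at the depth of that library, counting error only. Its lowest count in a library was 1 at 0 h and 3 at 12 h, so the low side of its range and SD rests on few counts. High and low calves occurred in each of the 3 groups.

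**Figure D2:**
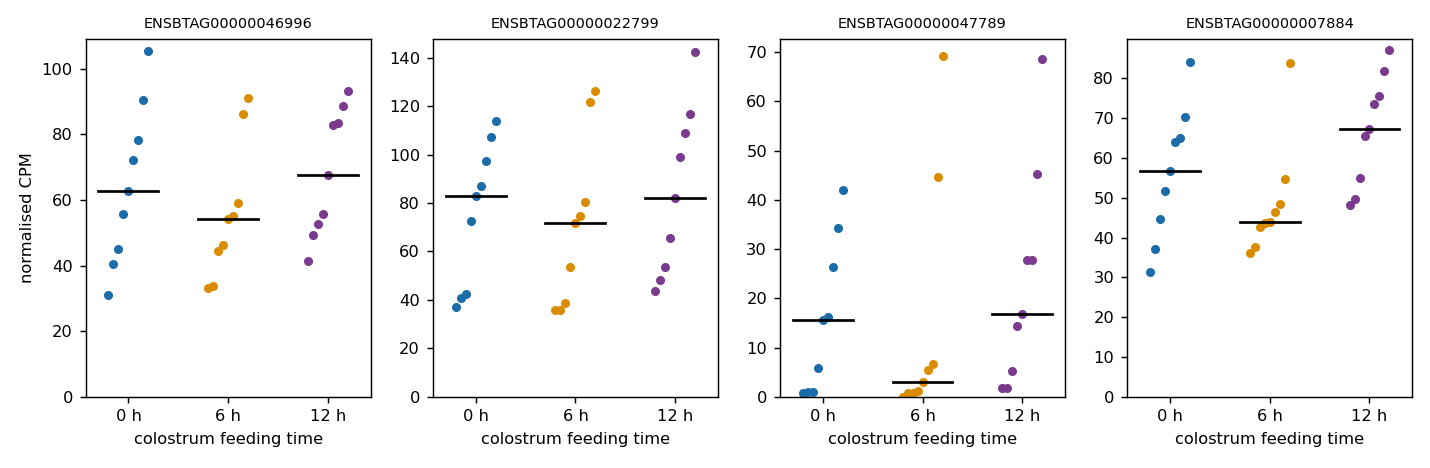
Normalised CPM (vertical axis, from 0) of 4 of the 200 genes by colostrum feeding time; points are calves, drawn in order of value, and lines the median of 9. The first 2 have the highest correlation with the component, ENSBTAG00000047789 has the widest spread, and ENSBTAG00000007884 the smallest p in a feeding comparison. The groups overlap for each of the 4.

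The 200 genes were of moderate abundance. Their mean level had a median of 44.2 normalised CPM, with quartiles of 20.9 and 84.4 and a highest value of 816. All genes kept had a median of 27.5. When the genes kept were divided into 4 equal classes by mean CPM, 72 of the 200 were in the most abundant class and 28 in the least abundant. A count of 0 occurred in 9 of 5400 values, in 5 genes. All 200 genes passed the filter on low counts by construction.

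Their SD of log2 CPM over the calves had a median of 0.47, where that of all genes kept was 0.30 and that of the 200 genes at the opposite end 0.21. The median SD was wider in each of the 4 classes of abundance. In the most abundant class the median SD was 0.38 for the 200 genes and 0.20 for all genes, and in the least abundant class 0.73 and 0.44. Most of the 200 genes, 92.5%, spanned more than 2-fold between the highest and the lowest calf, as did 67.4% of all genes kept. A span of more than 4-fold was seen for 38% and 13.6%. The biological coefficient of variation, the spread within feeding groups beyond counting noise, had a median of 28.4% for the 200 genes and 14.9% for all genes. The component used unscaled genes, so genes of wide spread can weigh more in it. The ranking itself was by correlation, which does not depend on a gene's spread, and at the opposite end it gave genes of narrow spread. Why the 200 genes spread widely was not tested. They were chosen on these same values, so all of these values are a description.

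Among themselves, the 200 genes correlated at a median Pearson r of 0.789 over all pairs of genes, with a range of 0.506 to 0.964. The median over all pairs of genes kept was -0.003. Within the calves fed at 0 h, at 6 h and at 12 h the median for the 200 genes was 0.851, 0.796 and 0.803. These correlations are across 9 calves and share the libraries that chose the genes.

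The same choice was therefore repeated without the calves in which it was then described, an alternative added after seeing the data. When 200 genes were chosen on the 18 calves of the other groups, their median pairwise r in the 9 calves fed at 0 h was 0.765. For the 6 h calves it was 0.700 and for the 12 h calves 0.713. The median over all genes was between -0.002 and -0.003 in each group. The genes chosen this way shared 149, 152 and 143 of their 200 with the set described here. At these medians, genes picked in one part of the calves varied together in calves that had no part in ranking them. Not every pair did, since the lowest pairwise r was -0.465, -0.796 and -0.662. The log2 CPM described came from the filter and scaling of all 27 libraries, so the calves left out were not wholly apart. The lists also differ from the set of 200 genes, so these values are a description.

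The component was oriented by ENSBTAG00000043570, but it followed that gene only in part. ENSBTAG00000043570 took 11.8% to 18.7% of the counts of a library, and its log2 CPM correlated with the component at r = -0.520 (Spearman's rho = -0.631) over 27 calves. Without replicates 7 and 5 at 12 h, the calves farthest from the median in that gene, r was -0.611. Each of the 200 genes correlated negatively with ENSBTAG00000043570, from -0.692 to -0.282 with a median of -0.454. The 200 genes were not the ones that followed ENSBTAG00000043570 most closely. Only 45 of them, 22.5%, were among the 200 genes of lowest correlation with it. The choice by the component largely sets the sign of these correlations and bears on the overlap, without fixing its size. Both are given only to show how far the genes follow ENSBTAG00000043570.

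By calf, the level of the 200 genes and the share of ENSBTAG00000043570 in the counts correlated at r = -0.677 (rho = -0.732, 27 calves). Within the groups fed at 0 h, 6 h and 12 h, r was -0.689, -0.861 and -0.640. Replicate 7 at 12 h had the highest share, 18.7%, but a level of the 200 genes near the middle, -0.02. Replicate 7 at 0 h had a low share, 14.0%, with a low level of -0.45. The level is a mean of scaled log2 CPM and the share a percent of unscaled counts, so this r and that with the component are of unlike measures. Both the level and the share come from the same counts, and the choice of genes largely fixed the direction of their correlation. The other abundant genes did not move as one. Of the 10 set aside, 5 correlated negatively with the component, while 3 had correlations of 0.696 to 0.785 and so varied with the 200 genes. When the 10 were removed before the libraries were scaled, all but 1 of the 200 genes were chosen again.

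**Figure D3:**
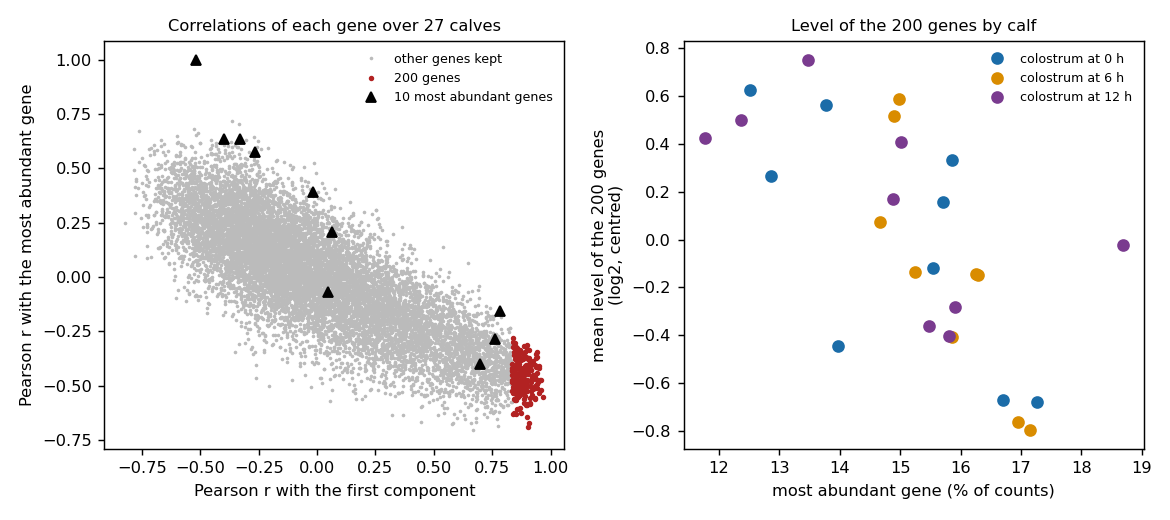
Left, Pearson r of each gene over 27 calves with the first component (horizontal axis) and with ENSBTAG00000043570 (vertical axis); the 200 genes are red, the 10 most abundant genes are triangles and other genes are grey. Right, level of the 200 genes in each calf (vertical axis, log2) by the share of counts of ENSBTAG00000043570 (horizontal axis, percent). The 200 genes lie at r of 0.834 and above with the component but spread from -0.692 to -0.282 against the abundant gene, and 1 calf at 18.7% lies apart on the right.

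Depth followed the level of the genes less closely. The log2 library total correlated with it at r = 0.158 (rho = 0.134) and the number of genes with a count at r = 0.192 (rho = 0.260). Without the 2 libraries farthest from the median, r was 0.126 and 0.197. The scaling factor of the library had r = -0.222 (rho = -0.220, and -0.232 without 2 libraries). With every library thinned to 972578 counts, 192 genes of the set still passed the filter. Their level correlated with that of the whole set at full depth at r = 0.999. Genes of the set too low to pass the filter at that depth are left out of this value. Thinning evens the number of counts only, so other differences between deep and shallow libraries were not tested.

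The feeding comparisons ask whether the time of the colostrum meal moved these genes. Feeding times were not used to rank the genes, so each could be tested in the fit of all 11429 genes. No gene of the set was called in any comparison. The level of the set was 0.00 ± 0.50 (SD, n = 9) in the calves fed at 0 h, from -0.68 to 0.63 with a median of 0.16. It was -0.14 ± 0.49 at 6 h, from -0.80 to 0.59 with a median of -0.14. At 12 h it was 0.13 ± 0.42, from -0.40 to 0.75 with a median of 0.17. The groups overlapped over most of their range, and the means differed by less than the SD within a group.

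For 6 h against 0 h, the quasi-likelihood test of edgeR called 0 of the 200 genes, as it did 0% of all genes, and DESeq2 and limma voom also called 0 of the 200. At an unadjusted p under 0.05 edgeR listed 0 of the 200, against 3.33% of all genes. The median log2 fold change of the set was -0.12, where that of all genes was -0.0005 and the median standard error in the set 0.219. The estimate was below 0 for 181 of the 200 and above 0 for 19, with 49.8% of all genes above 0. For 88% of the set and 97.4% of all genes, the 95% confidence interval stayed inside 2-fold. Leaving out 1 calf at a time moved the median from -0.21, without replicate 2 at 6 h, to -0.06, without replicate 1 at 0 h.

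For 12 h against 0 h, edgeR called 0 of the 200 genes and 0% of all genes, and DESeq2 and limma voom called 0 of the 200. Over all genes DESeq2 called 1, which was not in the set, and limma voom 0. At an unadjusted p under 0.05 edgeR listed 1 gene of the set, 0.5%, against 3.5% of all genes. The median log2 fold change of the set was 0.08, with a median standard error of 0.206, and 165 of the 200 estimates were above 0, against 50.3% of all genes. This direction rested on few calves. Without replicate 3 at 12 h the median was 0.02 and 114 estimates were above 0, and without replicate 1 at 0 h these were 0.17 and 194.

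Between the delayed groups, 12 h against 6 h, edgeR called 0 of the 200 genes and 0% of all genes, with a smallest adjusted p in the set of 0.926, and DESeq2 and limma voom called 0 of the 200. At an unadjusted p under 0.05 edgeR listed 12 of the 200, 6%, each higher at 12 h, against 5.12% of all genes in either direction and 2.61% higher. The median log2 fold change was 0.23, with a median standard error of 0.212, and 198 of the 200 estimates were above 0, against 50.1% of all genes. Since the genes vary together, these estimates are not separate measurements of a difference. They share the 6 h calves with the comparison at 6 h and the 12 h calves with that at 12 h. Leaving out 1 calf at a time moved the median from 0.15, without replicate 3 at 12 h, to 0.31, without replicate 2 at 6 h. The interval stayed inside 2-fold for 82% of the set and 97.3% of all genes.

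The smallest unadjusted p of the set in any comparison belonged to ENSBTAG00000007884, chosen after its values were seen. It ranged from 48.3 to 87.2 normalised CPM at 12 h (median 67.3), from 36.0 to 84.0 at 6 h (median 44.0) and from 31.4 to 84.1 at 0 h (median 56.9). Calves at 12 h were mostly above those at 6 h, but the groups overlapped. In 12 h against 6 h this gene was 0.48 higher on the log2 scale (SE 0.161, edgeR's adjusted p = 0.926). ENSBTAG00000046996 was 0.30 higher (SE 0.224) and ENSBTAG00000022799 0.27 higher (SE 0.292), with adjusted p-values from edgeR of 0.944 and 0.951.

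**Figure D4:**
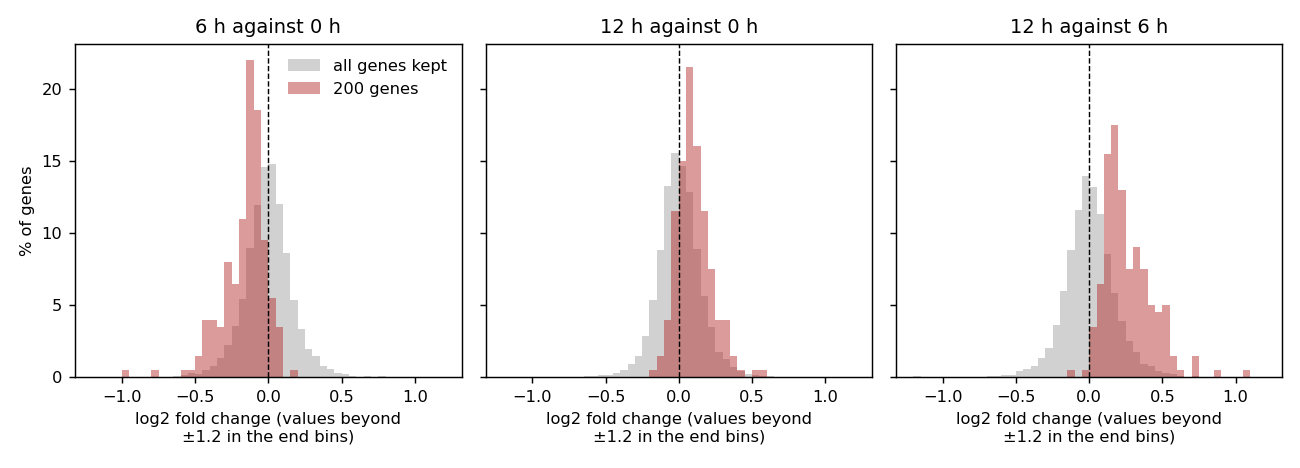
Log2 fold changes (horizontal axis) of the 200 genes (red) and of all genes kept (grey) in the 3 feeding comparisons, as a percent of the genes of each set (vertical axis). Values beyond 1.2 in either direction are counted in the end bins and occur for 0 of the 200 genes. The red medians are -0.12, 0.08 and 0.23, none of the genes passed edgeR's test after adjustment, and the genes of the set move together and are not independent of one another.

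With all 3 feeding times tested at once, edgeR called 0 of the 200 genes and 0% of all genes, with a smallest adjusted p in the set of 0.9998. DESeq2 and limma voom called 0 of the 200 as well. At an unadjusted p under 0.05 it listed 3 of the 200, 1.5%, against 3.81% of all genes. Of the squared spread of the level of the set over the 27 calves, 5.66% lay between feeding groups and the rest between calves of one group. Groups of calves differ to some extent without any effect of feeding, so this share is not an estimate of such an effect.

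The component was also computed in each feeding group alone. For the 0 h calves it held 25.3% of the variance, and its scores correlated with the level of the 200 genes at r = 0.992. For the 6 h calves it held 23.4%, with r = 0.941, and for the 12 h calves 24.9%, with r = 0.914. The median correlation of the 200 genes with the group's own component was 0.913, 0.854 and 0.830, where that of all genes was between -0.04 and -0.01. The calves of each group had a part in choosing the 200 genes, so these values are a description and support nothing further. Of the 200 genes of highest correlation with the group's own component, 112, 85 and 63 belonged to the set.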

How the data were processed

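Per the labels' protocols, RNA came from frozen ileum by a mirVana kit, and 100 ng went into each TruSeq library, a kit that keeps no strand, so antisense genes share reads. The authors deposited whole-number counts of reads per gene, not normalised, in 27 columns that each carry a calf's name from the labels. TopHat2 2.1.1, TopHat, SAMtools 1.4 and HTSeq, with the build UMD3.1, are listed in the submitters' processing notes. How reads with several matches were counted is not given in the sources read, so genes with near-identical copies are uncertain.

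The analysis used edgeR 4.0.16 in R 4.3.3. The filter filterByExpr (minimum count 10, minimum total 15, 9 libraries) kept 11429 of 24616 genes. Libraries were scaled by TMM, and log2 CPM had a prior count of 2. Principal components used centred, unscaled genes. Feeding was tested by edgeR's robust quasi-likelihood fit of all 27 libraries, with Benjamini-Hochberg adjustment over all genes kept and a threshold of 0.05. Libraries of 972578 to 7125552 counts entered this fit. Its median standard error was 0.137 to 0.145 on the log2 scale over all genes, which includes the spread between calves as well as counting noise. The fit and the choice of genes were tested on simulated data. The simulation of the choice limited the spread of each gene between calves, and so differed from these data.

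The members, lists and tests were chosen with earlier results of these data known. The rule for identifiers, with no symbols, allowed ENSBTAG00000043570 and the 2 genes of highest correlation; 2 more were chosen after their values were seen. The 35 gene lists could not be used without symbols. Replicate numbers gave no sign of pairing the calves. Of 27 same-numbered pairs, 5 had deviations correlated above 0.1, and their median was -0.04. Other pairs had a median of -0.01 and an upper quartile of 0.12. These correlations cannot exclude a pairing that left no mark on the counts. Alternatives included DESeq2 1.42.0 and limma 3.58.1. Figures were drawn in Python 3.11.15.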

Additional observations from a re-analysis of the deposited data

Results flagged for a closer look

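For 30 sets of 9 values (a measure or gene within a feeding group), the distance of the highest and lowest calf from the next was set against the whole range. This distance was large in 2 sets, and about 1 in 20 would show it by chance. At 12 h, replicate 7 stood at 217763 normalised CPM of ENSBTAG00000043570, with the next calf at 162245. This library was also the deepest, with 7125552 counts, and whether depth had a part in the value was not tested. At 6 h, replicate 4 stood at 84.0 normalised CPM of ENSBTAG00000007884, with the next calf at 54.8. The level of the 200 genes held no such calf in any of the 3 groups.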

How the results depend on the processing

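No gene of the set was called in any feeding comparison under 9 alternatives (RLE size factors, no filter, a filter of 1 CPM in 9 libraries, DESeq2, limma voom, the replicate number as a block, a threshold of 0.1, the library total or the first component as a covariate) or when each of 27 libraries was left out, with a smallest adjusted p in the set of 0.638. Over all genes, 1 outside the set was called for 12 h against 0 h with DESeq2, without a filter, with the component as a covariate and without replicate 5 at 6 h, and 1 among the 3 feeding times with that covariate; the other fits called 0. With the replicate block the set's median log2 fold changes were -0.12 at 6 h and 0.11 at 12 h, each against 0 h, and 0.23 between the delayed groups, and 2 of 27 libraries correlated best with their own number. With the component as a covariate they were -0.001, -0.03 and -0.02; this covariate is the axis that chose the genes. Leaving out 1 library gave ranges of -0.21 to -0.06, 0.02 to 0.17 and 0.15 to 0.31.

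Which 200 genes were chosen depended more on the settings. Genes scaled to unit variance gave 129 of the 200 again. The calves of one feeding group alone gave 112 at 0 h, 85 at 6 h and 63 at 12 h, from 9 calves each. The 10 other settings planned gave between 143 of them and all but 1, library totals before the filter, added after seeing the data, 200, and leaving out 1 library 171 to 195. Depth limits the genes of lowest count, where the 200 had a lower quartile of 33 counts per library.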
